A study of Mus musculus with 11 samples.

Results

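The CCT chaperonin subunits are the 8 genes Tcp1, Cct2, Cct3, Cct4, Cct5, Cct6a, Cct7 and Cct8, and they were taken by gene name from the 19170 genes with values in the gingival epithelium. All 8 had a value in every mouse. The tissue came from Langerin-DTR mice, which express the diphtheria toxin receptor in langerin-positive cells such as Langerhans cells (LCs), and every mouse of both groups carried this transgene. The PBS group (n = 5) was injected with PBS and the DT group (n = 6) with diphtheria toxin, and both groups were injected at 17, 24 and 31 days of age. The epithelium was collected from adult mice, which by the study's scheme were 8 weeks old. The study's scheme removed LCs only around weaning. By the study's flow cytometry, LCs then returned step by step and were back at normal frequencies at 8 weeks of age. The comparison is therefore of adult tissue with a past depletion. It asks how gene expression in the adult gingival epithelium differed after LCs had been removed early in life.

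CCT, also called TRiC, is the chaperonin of the cytosol. Its 8 different subunits form stacked rings around a chamber in which newly made proteins fold at the cost of ATP, and actin and tubulin are its best known clients. Each subunit has its own place in the ring, and in dividing and growing cells the complex is abundant.

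The keratinocyte markers were high in every mouse, with 8 of 8 detected and a summed level of 1805200 to 2000600 normalized counts in PBS mice and 1802600 to 2062600 in DT mice. A normalized count is the number of reads of a gene divided by the size factor of its library. Reads on genes numbered 17509328 to 24325514 per mouse. PBS 3 and PBS 5 stood apart from the other PBS mice on the first principal component of the 500 most variable genes, at 17.16 and 20.88 against -12.95 to -11.92, while DT mice lay between -9.086 and 10.51. The main counts are therefore also given without them.

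The members lie on 8 different chromosomes. The positions are those of GENCODE M21 on GRCm38. The study's methods name GRCm38, while the submitters' processing notes name GRCm39, so the build that was used for counting remains unsettled. Tcp1 (ENSMUSG00000068039), which encodes the alpha subunit, is at chr17:12915701-12925067 on the plus strand. Cct2 (ENSMUSG00000034024, beta) is at chr10:117051001-117063814 on the minus strand and Cct3 (ENSMUSG00000001416, gamma) at chr3:88297116-88321767 on the plus strand. Cct4 (ENSMUSG00000007739, delta) is at chr11:22990519-23003780 on the plus strand and Cct5 (ENSMUSG00000022234, epsilon) at chr15:31590800-31601804 on the minus strand. Cct6a (ENSMUSG00000029447, zeta) is at chr5:129786998-129846371 on the plus strand, Cct7 (ENSMUSG00000030007, eta) at chr6:85451514-85468475 on the plus strand and Cct8 (ENSMUSG00000025613, theta) at chr16:87483326-87495873 on the minus strand.

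Promoter windows of 250 bases before a start site were matched by gene symbol for 7 of the 8 members, 9 windows in all, in the RefSeq table on GRCm38.p6. Cct4 was not matched. The windows of Tcp1 (chr17:12916079-12916328, plus strand), Cct5 (chr15:31601847-31602096, minus strand) and Cct8 (chr16:87495870-87496119, minus strand) are shown because Tcp1 and Cct5 had the largest differences between the groups and Cct8 had the smallest. They are written 5′ to 3′, and capitals mark the heat shock element, the GC box and the CCAAT box on either strand.
Tcp1: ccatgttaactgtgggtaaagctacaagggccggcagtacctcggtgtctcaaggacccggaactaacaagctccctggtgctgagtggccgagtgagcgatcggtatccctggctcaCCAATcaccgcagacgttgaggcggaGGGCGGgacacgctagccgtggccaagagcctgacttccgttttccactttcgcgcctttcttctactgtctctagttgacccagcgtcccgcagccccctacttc
Cct5: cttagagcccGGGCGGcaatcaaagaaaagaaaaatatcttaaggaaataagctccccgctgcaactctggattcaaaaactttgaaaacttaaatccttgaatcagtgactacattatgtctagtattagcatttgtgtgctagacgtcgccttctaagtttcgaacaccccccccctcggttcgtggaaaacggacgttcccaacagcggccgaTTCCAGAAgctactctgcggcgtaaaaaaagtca
Cct8: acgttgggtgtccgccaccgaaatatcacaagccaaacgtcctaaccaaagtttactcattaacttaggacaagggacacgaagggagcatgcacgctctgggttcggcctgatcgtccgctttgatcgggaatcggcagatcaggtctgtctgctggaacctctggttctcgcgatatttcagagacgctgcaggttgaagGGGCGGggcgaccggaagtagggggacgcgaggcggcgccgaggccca
The heat shock element was searched as GAANNTTC or TTCNNGAA, and it was in the windows of 2 of 7 members, against 12.8% of all 32851 windows. In Cct5 it lies 34 bases before the start shown and in Cct2 it lies 42 bases before the second start. The GC box (GGGCGG), which Sp family factors bind, was in a window of 7 of 7 members, against 32.7% of all windows. The CCAAT box (CCAAT), which NF-Y binds, was in the windows of 4 of 7 members, against 33.8% of all windows. The E-box (CACGTG), which Myc and related factors bind, was in 0 of 7 against 6.02%, and the palindromic motif of NRF1, a factor of housekeeping genes, was in 0 of 7 against 0.782%. Both strands were searched. These are matches of letters in a window, some of which fall in a second start of the same gene. A member was counted when any of its windows matched, whereas the background counts single windows. Cct2 and Cct5, which held the heat shock element, were also the only members with a second window.

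All 8 subunits had a higher mean in the DT mice than in the PBS mice, but none passed the test across all genes. The fitted differences lay between 4.28% for Cct8 and 12.7% for Cct5, and their median was 0.12 on the log2 scale (range 0.06 to 0.17). The median was -0.01 over all 19170 genes and 0.03 over the 3617 highly expressed genes (mean normalized count of 1000 or more), a class that holds every member. In limma, 0 of 8 members had an adjusted p under 0.1, a call that 0.558% of all genes received in either direction and 0.313% as higher after DT. Without adjustment, 6 of 8 members were higher with p under 0.05, against 5.31% of all genes and 12.1% of the highly expressed genes. Every member had a positive difference, and 47.3% of all genes and 65% of the highly expressed genes did. The unadjusted count was 3 of 8 after quantile normalization, where 10.6% of all genes had such a p in either direction. Without PBS 3 and PBS 5, 5 of 8 members passed the threshold, Tcp1, Cct2, Cct3, Cct5 and Cct7, where 4.81% of all genes did in that direction. These mice also had the highest summed CCT level of the PBS group, at 30619 and 30340 normalized counts. Leaving them out therefore lowers the PBS side of the comparison. With 1 mouse left out, the unadjusted count ran from 4 of 8 (PBS 2, PBS 4 or DT 5) to 7 of 8 (PBS 3 or PBS 5). Over all genes, 1938, 2236 and 1710 had such a p in either direction without PBS 2, PBS 4 and DT 5. The number was 2422 without PBS 3 and 2678 without PBS 5, against 2204 with all 11 mice.

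**Figure D1:**
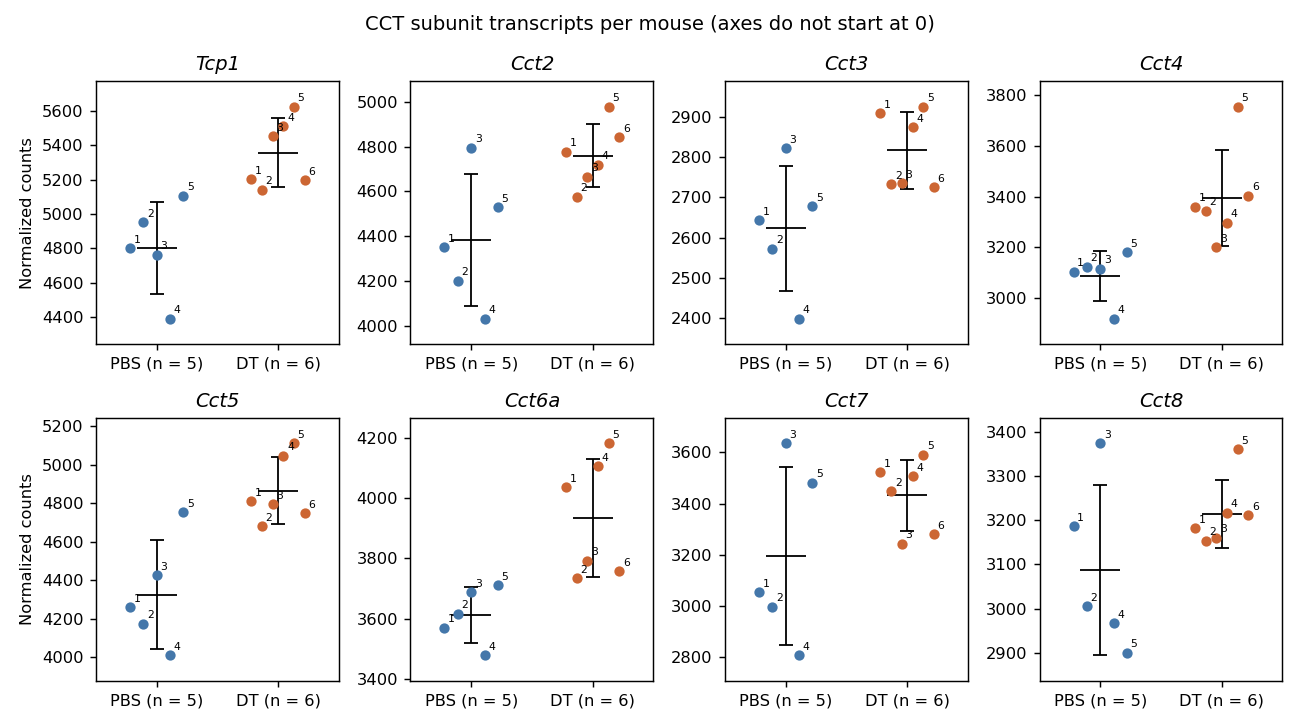
Normalized counts of each CCT subunit (vertical axis, not starting at 0) in the 5 PBS and 6 DT mice, one point per mouse with its number, and the group mean with its SD as a black bar. The groups are apart for Tcp1, Cct4 and Cct6a, and overlap for the other members.

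Cct5, the epsilon subunit, had the largest difference. Its level was 4259.1, 4173.8, 4425.5, 4007.8 and 4753.0 normalized counts in PBS 1 to 5, and in DT mice it was lowest at 4682.2, with a median of 4802.8 and a highest value of 5112.9. PBS 5 was as high as the lower DT mice, and 4 of 6 DT mice were above it. The mean was 4324 ± 283 in PBS mice (SD, n = 5) and 4866 ± 173 in DT mice (SD, n = 6). The log2 difference was 0.17 (SE 0.0502, limma adjusted p = 0.209), and the 95% interval ran from 0.0656 to 0.279. Without PBS 5 the difference was 0.21 with a limma adjusted p of 0.0658, and this was the sole member called when 1 mouse was left out, where 0.809% of all genes were called higher.

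Tcp1, the alpha subunit after which the complex was first named, was separated between the groups. It was at 4799.9, 4952.2, 4761.5, 4389.3 and 5105.6 normalized counts in PBS 1 to 5, and in DT mice it was lowest at 5140.9, with a median of 5329.3 and a highest value of 5626.0. Every DT mouse was above every PBS mouse. The means of 4802 ± 268 (SD, n = 5) and 5356 ± 201 (SD, n = 6) gave a log2 difference of 0.16 (SE 0.0488, limma adjusted p = 0.223).

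Cct4, the delta subunit, also had groups that did not overlap. It was at 3104.9, 3123.3, 3116.0, 2919.5 and 3180.2 normalized counts in PBS 1 to 5, and in DT mice it was lowest at 3201.3, with a median of 3352.2 and a highest value of 3753.9. The gap between the groups was small, and DT 5 was well above the other DT mice. The means were 3089 ± 99.0 (SD, n = 5) and 3393 ± 190 (SD, n = 6), a log2 difference of 0.13 (SE 0.0480, limma adjusted p = 0.289).

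Cct6a, the zeta subunit, was the third gene with separate groups. The PBS mice had 3570.0, 3616.9, 3687.3, 3477.8 and 3711.2 normalized counts, and the DT mice were lowest at 3733.4, with a median of 3914.8 and a highest value of 4182.7. The highest PBS mouse was just under the lowest DT mouse. The log2 difference was 0.12 (SE 0.0461, limma adjusted p = 0.315). Separation of this kind, with all DT mice higher, was seen in 3 of 8 members, in 0.902% of all genes and in 2.27% of the highly expressed genes.

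Cct2, the beta subunit, and Cct3, the gamma subunit, overlapped between the groups through PBS 3. Cct2 was at 4351.9, 4201.0, 4796.7, 4030.5 and 4530.6 normalized counts in PBS 1 to 5, and in DT mice it was lowest at 4576.6, with a median of 4748.4 and a highest value of 4980.4. Cct3 was at 2643.2, 2572.3, 2821.3, 2398.6 and 2677.7 in PBS mice, and in DT mice it was lowest at 2725.1, with a median of 2804.4 and a highest value of 2924.9. For both genes, PBS 3 reached the middle of the DT range. The log2 differences were 0.12 for Cct2 (SE 0.0499, limma adjusted p = 0.361) and 0.10 for Cct3 (SE 0.0485, limma adjusted p = 0.428).

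Cct7, the eta subunit, had the widest spread among PBS mice. It was at 3052.9, 2997.0, 3636.0, 2805.7 and 3481.4 normalized counts in PBS 1 to 5, and in DT mice it was lowest at 3242.6, with a median of 3477.4 and a highest value of 3591.1. No DT mouse was above PBS 3, the highest of all mice, and the coefficient of variation was 10.9% in PBS mice against 4.08% in DT mice. The log2 difference was 0.11 (SE 0.0638, limma adjusted p = 0.537), with an interval from -0.0264 to 0.245. Without PBS 3 and PBS 5, the highest PBS mice for this gene, it was 0.22, with a limma adjusted p of 0.0226.

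Cct8, the theta subunit, had the smallest difference. It was at 3186.4, 3004.7, 3374.5, 2966.9 and 2900.1 normalized counts in PBS 1 to 5, and in DT mice it was lowest at 3153.8, with a median of 3196.8 and a highest value of 3361.5. PBS 1 and PBS 3 were within or above the DT range, and PBS 5, which was high for most other subunits, was the lowest of all mice here. The log2 difference was 0.06 (SE 0.0475, limma adjusted p = 0.669), with an interval from -0.0404 to 0.161.

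**Figure D2:**
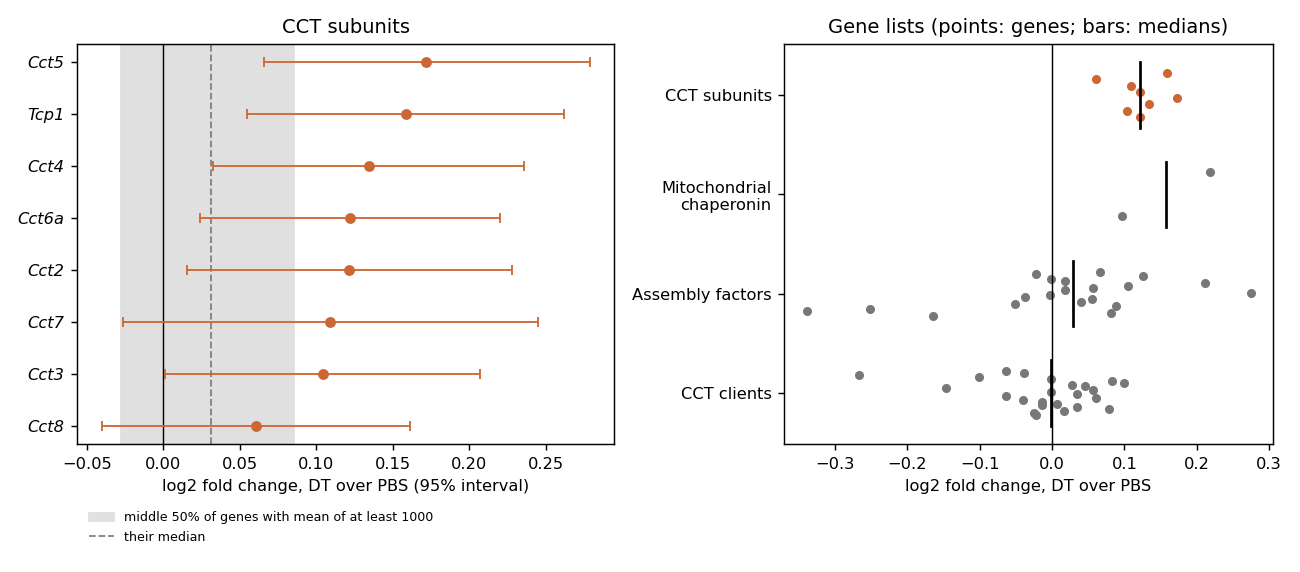
Left, the log2 difference between DT and PBS mice (horizontal axis) for each CCT subunit with its 95% interval, beside the median (dashed line, 0.03) and the quartile range (grey band, -0.03 to 0.09) of the highly expressed genes. Right, the same measure for each gene of the subunits, the mitochondrial chaperonin, the assembly factors and the clients, with the list median as a bar; the subunits sit to the right of 0 and the clients on both sides of it.

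Each member had between 2336 and 6085 reads in a mouse. The counting error at this depth was at most 1.97%, averaged over a group, whereas the coefficient of variation within a group was 2.38% to 10.9%. The labels name the samples as replicates and the study as mice, one library each. Summed over the 8 members, the level was 28968, 28641, 30619, 26996 and 30340 normalized counts in PBS 1 to 5 and lay between 30813 and 33533 in DT mice. The sum made up 0.134% to 0.151% of all normalized counts in PBS mice and 0.150% to 0.162% in DT mice.

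Levels between subunits are compared per length, and here they are given as the normalized count per kilobase of the union of all annotated exons. Cct2 was highest at 1714 in PBS and 1862 in DT mice, followed by Cct5 at 1563 and 1759. Cct8 (999.5 and 1041), Cct6a (998.0 and 1087) and Tcp1 (954.6 and 1065), followed with nearly equal levels, and their order was not the same in both groups. Cct4 was at 735.3 and 807.7, Cct7 at 471.3 and 506.3, and Cct3 was lowest at 411.7 and 442.2. With the longest transcript as the length, Cct5 (2333 and 2626) was above Cct2 (2237 and 2430), so this order rests on the length that is used. Without any length, Tcp1 had the largest share of the summed normalized counts, at 16.5% in PBS and 16.9% in DT mice. The labels name a poly(A) library kit while the study's methods process the reads by the guide of a kit that reads the 3′ ends of transcripts, for which division by length would not apply, so the order between subunits is uncertain.

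**Figure D3:**
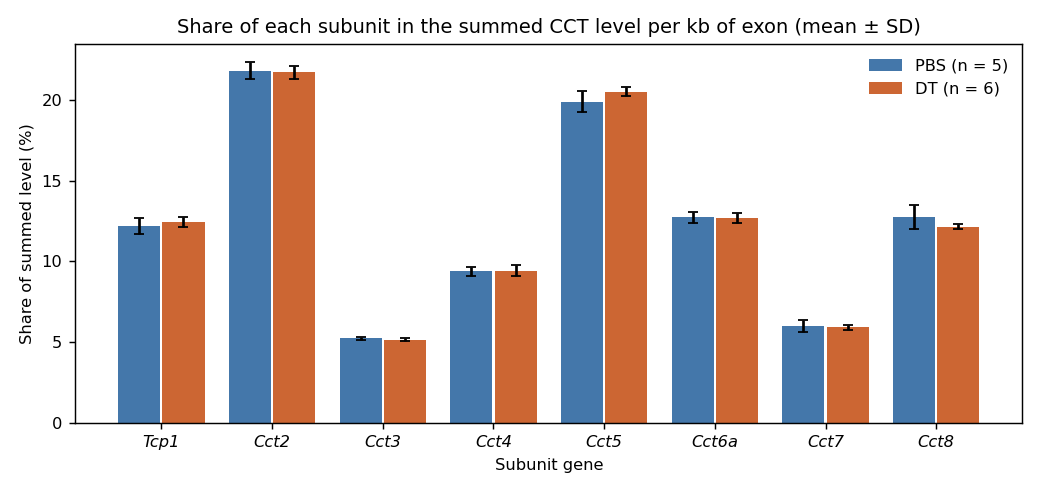
Share of each CCT subunit in the summed length-normalized level of the 8 subunits (vertical axis, percent), with bars for the group means and error bars for the SD. Single mice are not drawn. The SD ranges of PBS and DT mice overlap for every subunit.

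No subunit passed a test of its share in the complex's summed transcript level. As a share of the summed level per kilobase, Cct5 made up 19.9% ± 0.660 in PBS mice (SD, n = 5) and 20.5% ± 0.259 in DT mice (SD, n = 6). Cct8 made up 12.8% ± 0.734 and 12.2% ± 0.151. A two-sided exact permutation test over 462 splits gave p = 0.0649 for Cct5 and p = 0.0823 for Cct8, both with an adjusted p of 0.329 over the 8 members. The smallest p this design allows is 0.00216. The other 6 shares had exact permutation p values from 0.173 for Cct3 to 0.81 for Cct4. Without PBS 5, the Cct5 share went from 19.6% to 20.5% and the Cct8 share from 13.1% to 12.2%, each with p = 0.00476 in the exact permutation test, the smallest possible, and an adjusted p of 0.019. PBS 5 had the highest Cct5 share of all mice, at 21.1%, and the lowest Cct8 level. Leaving it out therefore favours a separation of the groups in these shares. With any other mouse left out, 0 shares passed an adjusted p of 0.05.

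The subunits varied together from mouse to mouse. Averaged over the 8 members, the log2 level relative to the mean of all mice was -0.07, -0.09, 0.01, -0.17 and -0.01 in PBS 1 to 5 and 0.06, 0.02, 0.02, 0.08, 0.14 and 0.03 in DT 1 to 6. PBS 4 was the lowest mouse for 7 of 8 members, and DT 5 was the highest for 6 of 8. For Cct7 and Cct8 the highest mouse was PBS 3. The first principal component of the 8 genes held 81.1% of their variance, and 70.4% once each group was centred on its own mean.

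**Figure D4:**
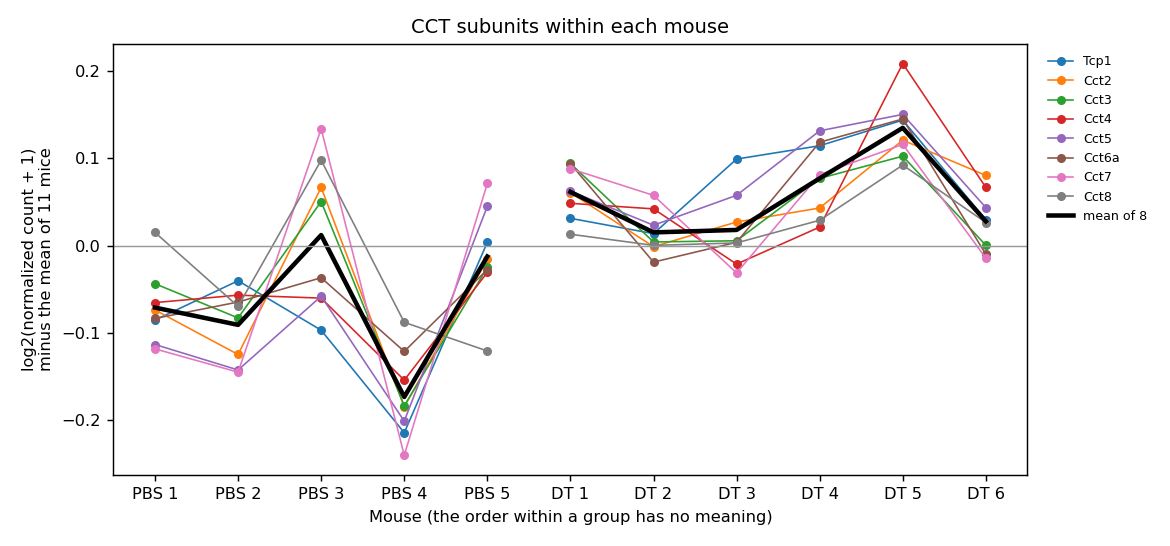
Log2(normalized count + 1) of each CCT subunit minus its mean over 11 mice (vertical axis), by mouse, with the mean of the 8 subunits as a thick black line. The lines run close together, lowest in PBS 4 at a mean of -0.17 and highest in DT 5 at 0.14, and the order of mice within a group has no meaning.

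Over the 28 pairs of members, the median Pearson r across 11 mice was 0.792 (range 0.396 to 0.928) and the median Spearman rho was 0.759. The genes of a mouse share its library and its size factor, and their part in r was not tested. A permutation test with 100000 permutations, adjusted over the 28 pairs, gave an adjusted p under 0.05 for 23 pairs by r and for 19 by rho. These pooled values also hold the difference between DT and PBS that the members share. How many pairs of other genes pass the same level was not computed. With the groups pooled, Tcp1 and Cct5 were closest, with r = 0.928 (permutation p = 5e-05, adjusted p = 0.00098) and rho = 0.927 (permutation p = 0.00016, adjusted p = 0.0015), and r was 0.855 without PBS 4 and DT 5, the mice farthest from the median of Tcp1. Cct2 and Cct3 had r = 0.926 (permutation p = 7e-05, adjusted p = 0.00098) and rho = 0.836 (permutation p = 0.0022, adjusted p = 0.0069), and r was 0.79 without PBS 4 and PBS 2. Without the 2 farthest mice, the median r over all pairs was 0.622 and 27 of 28 remained above 0.

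Over all mice, Cct8 had the loosest relation to the others. Its 7 pairs had a median r of 0.565, against 0.828 for the 21 pairs without it. Tcp1 and Cct8 had r = 0.396 (permutation p = 0.23, adjusted p = 0.23) and rho = 0.355 (permutation p = 0.28, adjusted p = 0.29), and r was -0.0977 without PBS 4 and DT 5. In the 6 DT mice alone this order was turned, with a median r of 0.713 for the 7 pairs with Cct8 and 0.61 for the 21 without it, and Tcp1 and Cct8 had r = 0.686. The difference between Cct8 and the other members was not tested.

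**Figure D5:**
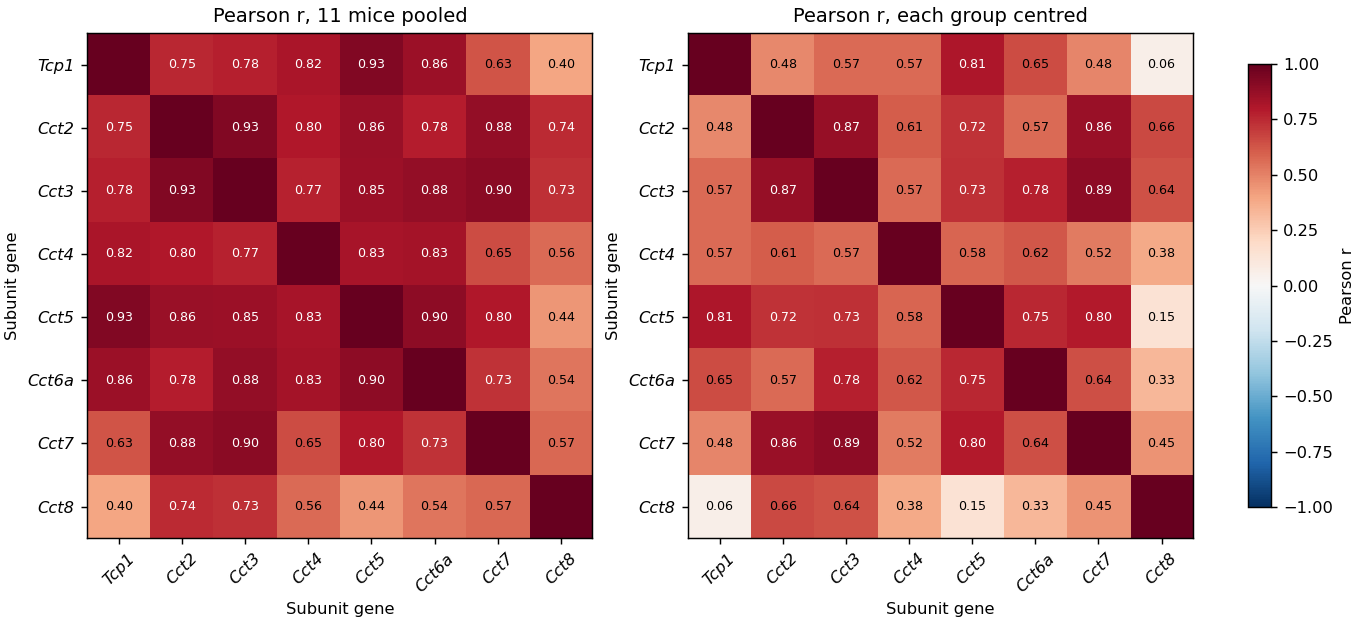
Pearson r for each pair of CCT subunits over 11 mice, on the left with the groups pooled and on the right with each group centred on its own mean. Every value is above 0, from 0.396 to 0.928 on the left and from 0.0605 to 0.893 on the right, and with the groups pooled the lowest value is that of Tcp1 and Cct8.

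The co-variation was also seen within the groups. With each group centred on its own mean, so that the difference between DT and PBS was removed, the median r was 0.613 (range 0.0605 to 0.893), and all 28 pairs were above 0. The closest pair was then Cct3 and Cct7, with Tcp1 and Cct5 at 0.806. In the 6 DT mice alone the median was 0.627, from 0.287 for Tcp1 and Cct7 to 0.969 for Cct3 and Cct6a. Each member was then compared with the mean of the other 7, and ranked among the 10012 genes that averaged 100 normalized counts or more. Cct3 ranked at 9 (r = 0.924), Cct2 at 75 (r = 0.872) and Cct7 at 96 (r = 0.838), whereas Cct4 ranked at 1375 (r = 0.659), Tcp1 at 1531 (r = 0.620) and Cct8 at 2868 (r = 0.455). These centred values are descriptions over the same 11 mice.

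The genes outside the complex with the pattern most like the mean of the 8 members, by the same centred r among 10011 genes, were Uba2 (0.945), Marchf3 (0.943), Cbr3 (0.938), Trappc2l (0.938) and Prdx1 (0.933). Uba2 is a subunit of the SUMO-activating enzyme, Marchf3 a membrane-bound ubiquitin ligase, Cbr3 a carbonyl reductase and Prdx1 a peroxiredoxin that removes peroxides. Cbr3 was at 2325.3, 2364.3, 2623.1, 2053.5 and 2663.0 normalized counts in PBS 1 to 5, and in DT mice it was lowest at 2754.2, with a median of 2865.6 and a highest value of 3153.5. The groups did not overlap, and the log2 difference was 0.27 (SE 0.0639, limma adjusted p = 0.105). Trappc2l shared the pattern within the groups but not the difference between them, which was -0.08 on the log2 scale (SE 0.114).

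The start of another gene on the opposite strand lay within 1 kb of 6 members. A start is here the outermost one of the gene in GENCODE. For Tcp1 it lies before the whole RefSeq promoter window shown above, so the distance depends on the start that is used. Tcp1 and Mrpl18, which encodes a protein of the mitochondrial ribosome, start 644 bases apart. Mrpl18 was between 473.54 and 582.33 normalized counts in PBS mice and between 512.81 and 603.42 in DT mice, a log2 difference of 0.12 (SE 0.0650, limma adjusted p = 0.511). Across 11 mice it followed Tcp1 with r = 0.873 (permutation p = 0.00038, adjusted p = 0.0023 over 6 pairs) and rho = 0.809 (permutation p = 0.0038, adjusted p = 0.023), and r was 0.729 without the 2 mice farthest from the median of Tcp1. The exons of Tcp1 and Mrpl18 overlap on opposite strands, and the setting for strand at counting is not given in the sources used here, so reads of the pair may not be told apart.

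The other 5 neighbours did not pass this test. Fam173b, listed as Atpsckmt, starts 48 bases from Cct5 and was at 187 ± 39.4 normalized counts in PBS and 181 ± 21.9 in DT mice. Its r with Cct5 was -0.506 (permutation p = 0.12, adjusted p = 0.23), its rho was -0.391 (permutation p = 0.24, adjusted p = 0.39), and r was 0.0268 without the 2 farthest mice. For Tsacc beside Cct3, B130034C11Rik beside Cct8, Psph beside Cct6a and Pradc1 beside Cct7, the adjusted permutation p of r ran from 0.14 to 0.28. Exons of Cct8 and Usp16, of Cct6a and Psph, of Cct7 and Pradc1 and of Tcp1 and Acat3 also overlap on opposite strands, with the same limit. The annotation holds processed pseudogenes of Cct3 and Tcp1, both listed without values.

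Of the 20 assembly factors and related chaperonin-like genes, 0 passed the limma threshold, and 12 had a positive difference. Without adjustment 2 of 20 were higher at p under 0.05 and 0 were lower, against 5.31% and 6.19% of all genes, and the median log2 difference was 0.03. Pfdn5, a subunit of prefoldin, which hands unfolded actin and tubulin to CCT, was at 1377.1, 1402.3, 1185.8, 1092.8 and 1754.3 normalized counts in PBS 1 to 5, and in DT mice it was lowest at 1483.8, with a median of 1654.4 and a highest value of 1711.2. PBS 5 was above every DT mouse while the other PBS mice were below all of them. The log2 difference was 0.27 (SE 0.0927, limma adjusted p = 0.264), and without PBS 5 it was 0.37 with a limma adjusted p of 0.031. Txndc9, a phosducin-like protein that binds CCT, had a log2 difference of 0.13 (limma adjusted p = 0.342), and Arl2, a small GTPase of the tubulin folding pathway, one of -0.16 (limma adjusted p = 0.495). Cct6b, the testis form of the zeta subunit, was near its detection limit at 0.911 to 3.395 normalized counts in PBS mice and 0 to 3.439 in DT mice.

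The 24 client genes lay on both sides of 0. In limma 0 of 24 passed the threshold, 1 of 24 was higher at an unadjusted p under 0.05, 11 of 24 had a positive difference, and the median log2 difference was -0.0019. Actb and Actg1, the cytoplasmic actins, differed by -0.02 and -0.03 on the log2 scale (limma adjusted p = 0.926 and 0.920). Tubb2a, a beta tubulin, was at 4680 ± 249 normalized counts in PBS and 5011 ± 98.5 in DT mice, a log2 difference of 0.10 (limma adjusted p = 0.409). Tubb6 differed by -0.27 (limma adjusted p = 0.455) and Tuba1b by -0.15 (limma adjusted p = 0.545), and in both PBS 3 and PBS 5 were the highest mice. Without PBS 3 and PBS 5 the threshold was passed by 3 assembly factors, Pfdn5, Tbcc and Txndc9, and by 2 clients, Actr3 and Tuba1c, each of them higher after DT. That is 3 of 20 and 2 of 24 genes, where 4.81% of all genes were called higher. In this fit 21 of 24 clients had a positive difference, with a median of 0.06. The share of all genes with a positive difference in this fit was not computed, so the count of clients has no background. With all 11 mice that share was 47.3% of all genes and 65% of the highly expressed genes.

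The mitochondrial chaperonin, a separate folding machine, was measured by Hspd1 and its lid Hspe1. Hspe1 was at 933 ± 75.6 normalized counts in PBS mice and 1087 ± 105 in DT mice, a log2 difference of 0.22 (SE 0.0720, limma adjusted p = 0.255). Hspd1 differed by 0.10 (SE 0.0509, limma adjusted p = 0.484). Neither passed the threshold.

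Other cells in the tissue and the rate of division were followed through marker lists beside the members. The 5 LC markers all had lower means in DT mice, with a median log2 difference of -0.35, 2 of 5 at an unadjusted p under 0.05 (6.19% of all genes were lower at this level) and 0 past the limma threshold. Their summed level was 1964.3, 2140.8, 4118.8, 1763.9 and 3288.3 normalized counts in PBS 1 to 5, and 1272.2 to 2365.0 in DT mice. The high values were those of PBS 3 and PBS 5, and the other PBS mice lay within the DT range. Most of the summed level was Cd74, Mfge8 and H2-Ab1, with means of 1361, 657 and 557 in PBS mice. Cd207, which encodes langerin, was low, at 23.9 ± 13.4 in PBS and 18.4 ± 1.99 in DT mice. Its log2 difference was -0.19 (limma adjusted p = 0.853). Without PBS 3 and PBS 5 the median was -0.09, with 3 of 5 markers lower in DT mice and 0 at an unadjusted p under 0.05. In bulk tissue, fewer cells of a type and less RNA per cell cannot be told apart. The 6 proliferation genes all had lower means in DT mice, with a median of -0.14, a summed level of 8839.3 to 10172 in PBS and 7582.3 to 9540.3 in DT mice, and 0 past the threshold. Mki67 among them differed by -0.31 (limma adjusted p = 0.180), by -0.37 without PBS 3 (limma adjusted p = 0.0775) and by -0.39 without PBS 3 and PBS 5 (limma adjusted p = 0.0165), where 5.45% of all genes were called lower. In the same fit 4 of the 6 genes were lower, with a median of -0.04. The 4 leukocyte markers with values summed to 187.55 to 250.45 in PBS and 156.64 to 256.57 in DT mice, with Ly6g listed without a value, and Ptprc among them differed by -0.62 (limma adjusted p = 0.307). The 5 fibroblast markers summed to 1246.5 to 1445.0 and 1105.9 to 1592.7, most of it Dcn. The collagens were low and differed by -0.53 for Col1a1, -0.42 for Col1a2 and -0.48 for Col3a1 (limma adjusted p = 0.361, 0.583 and 0.541). The remaining 2 fibroblast markers went the other way, Dcn by 0.09 and Pdgfra by 0.30 (limma adjusted p = 0.729 and 0.808). Without PBS 3 and PBS 5, Col1a1 (-0.86, limma adjusted p = 0.0215) and Col1a2 (-0.84, limma adjusted p = 0.0597) passed the threshold. For the other lists, the 3 endothelial markers summed to 52.462 to 95.049 and 42.307 to 110.68, and the 2 erythrocyte markers to 47.524 to 162.63 and 43.933 to 105.77. The part of these cells in the levels of the CCT subunits was not tested.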

How the data were processed

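RNA of the gingival epithelium from 5 PBS and 6 DT mice was sequenced from libraries that the labels name as stranded and poly(A)-selected. Per the submitters' processing notes, the authors used cutadapt 2.10, TopHat2 2.1.1, HTSeq 2.01 and DESeq2 1.36.0 on GRCm39, whereas the study's methods name GRCm38 and other versions. The methods state that the first bases of each read were removed, following a guide for another library kit, and that genes with a summed count under 10 were left out. The authors deposited normalized counts, that is, gene counts divided by one DESeq2 size factor per mouse. Of 55414 genes listed, 19170 have values, and the number of columns of mice left out was 0. Reads per mouse were read back from the steps of the values (99.99% to 100% whole within 0.0011 normalized counts) and used for depth only.

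The test of DT against PBS was limma 3.58.1, run in R 4.3.3 (lmFit and eBayes with a trend, all 11 mice, no covariate) on log2(normalized count + 1), adjusted by Benjamini-Hochberg over 19170 genes, with a threshold of 0.1. A fold change on this scale slightly understates that of low genes. Correlations and shares used numpy 2.4.6 and scipy 1.17.1 in Python 3.11.15. The tests were tested on simulated data. The changes simulated for limma were larger than the differences of the members, so they do not show how well such small differences are found. Positions and exon lengths came from GENCODE M21, in which 99.7% of the genes were found. The members and lists were chosen with earlier results of these data known. All 8 members are named, with the 3 assembly factors and 3 clients of smallest unadjusted p, the 5 genes most like the members' mean, and neighbours within 1 kb. Actb, Actg1, the mitochondrial chaperonin, Cct6b, Mki67, Ptprc, Dcn, Pdgfra, the collagens and the genes passing without PBS 3 and PBS 5 were named after their values were seen. So were Cd207, Cd74, Mfge8 and H2-Ab1. The alternatives were other pseudocounts (0.5 and 8), a minimum mean of 10, TMM scaling, quantile normalization, array weights, replicate blocks and leaving out mice. P-values measure the spread between mice of one experiment.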

Additional observations from a re-analysis of the deposited data

Results flagged for a closer look

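The 8 members and the other named genes gave 56 groups of values in which a mouse far from the rest of its group was looked for, and 4 were found. Chance flags about 1 in 20 groups. Cct4 was 2919.5 normalized counts in PBS 4, whereas the other PBS mice lay between 3104.9 and 3180.2. Cct4 was 3753.9 in DT 5, whereas the other DT mice lay between 3201.3 and 3402.4. Cct8 was 3361.5 in DT 5, with the other DT mice between 3153.8 and 3217.4. The share of Cct5 in the summed level per kilobase was 21.057% in PBS 5, with the other PBS mice between 19.382% and 19.835%.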

How the results depend on the processing

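All 8 log2 differences stayed above 0 under every alternative that was run, and the median lay between 0.092 (quantile normalization) and 0.168 (without PBS 3 and PBS 5). When 1 mouse was left out it ranged from 0.1003 to 0.1462, and over 88 fits of a member the difference ranged from 0.0385 to 0.207. The number of members called was 0 to 1 when 1 mouse was left out, with Cct5 called without PBS 5, and 5 without PBS 3 and PBS 5. For the assembly factors these numbers were 0 to 1 and 3, with Pfdn5 called without PBS 5, and for the clients 0 to 0 and 2. Over all genes, 107 were called, 189 with array weights, 1967 without PBS 3 and PBS 5 and 27 to 259 when 1 mouse was left out: 29, 40, 170 and 259 without PBS 1, 2, 4 and 5, and 61, 52, 50, 27 and 30 without DT 1, 3, 4, 5 and 6. The cause of these changes was not tested. The median pairwise r was 0.6125 with each group centred, 0.6269 in DT mice and 0.6926 to 0.8501 when 1 mouse was left out. The number of shares past 0.05 was 0 to 2 when 1 mouse was left out, with 2 without PBS 5.

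Mice share a replicate number across the groups, but nothing in the labels pairs them, and the correlation of deviations between same-numbered mice ran from -0.233 to 0.324. With the number in the titles as a replicate block, 35 genes and 0 members were called in limma, with 1725 genes and 4 of 8 members at an unadjusted p under 0.05. With the library number as a block, 0 genes were called in limma, with 1404 genes and 2 of 8 members at an unadjusted p under 0.05. A mouse whose number has no partner adds nothing to a blocked difference, so these fits rest on 10 mice.

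Count models in edgeR and DESeq2 on recovered reads were intended and not run, since the deposited values were treated as normalized. The differences of 4.28% to 12.7% stand beside a coefficient of variation of 2.38% to 10.9% within a group.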
